A study of Ovis aries with 6 samples.

Results

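The genes described are 10 genes of fat storage, fat breakdown and mitochondrial uncoupling in muscle: PLIN2, PLIN3, PLIN5, PNPLA2, ABHD5, G0S2, LIPE, ANGPTL4, UCP2 and UCP3. They are a set of named genes among the 23144 genes of the count table, matched by symbol. The set was drawn up with earlier results of these data known, so the counts of called genes given below are a description of the set. For 9 of the 10 the table lists that symbol, and LIPE is listed under HSL, a synonym of LIPE in the RefSeq gene table. After a filter on low counts, 9 of the 10 could be tested, and G0S2 was too low to be tested.

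The muscle was the longissimus dorsi of female sheep aged 1 year, raised in the same environment, from 2 breeds. Qianhua Mutton Merino (QHMM) is a newly bred variety kept for meat and wool, made by crossing South African Mutton Merino with Northeast Fine-wool sheep, and Small Tail Han (STH) is a local Chinese variety. Each breed gave 3 animals and each animal 1 library of poly(A) RNA, read on an Ion Proton instrument. The sheep had free access to feed, and live weights were taken after a fast before slaughter, but whether the sampled animals differed in time since feeding is not given in the sources used here. All comparisons are STH vs. QHMM.

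Muscle fibres keep triacylglycerol in lipid droplets, whose surface is coated by perilipins. PNPLA2, the adipose triglyceride lipase, removes the first fatty acid from stored triacylglycerol, with ABHD5 as its coactivator and G0S2 as its inhibitor, and LIPE, the hormone-sensitive lipase, acts mainly on the diacylglycerol that is left. ANGPTL4 is a secreted inhibitor of lipoprotein lipase, the enzyme that frees fatty acids from circulating lipoproteins. UCP2 and UCP3 are carriers of the inner mitochondrial membrane, and UCP3 is the form known from skeletal muscle.

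The libraries held 10982191 to 14334544 reads on genes. In a principal component analysis the breeds separated on the first component (44.1% of the variance). The second component (19.1%) set QHMM replicate 2 and STH replicate 3 off from the remaining 4 libraries. Counts were normalized by the TMM method and scaled to the median library of 13044142 reads, and these are the normalized read counts given below. Calls were made with edgeR's quasi-likelihood F test at a Benjamini-Hochberg adjusted p below 0.05, over 12506 tested genes, together with a fold change above 1.5. By this rule 432 genes (3.45%) were called, 203 up-regulated (47.0%) and 229 down-regulated. With library totals in place of TMM factors, 158 of 250 called genes (63.2%) were up-regulated. Skeletal muscle markers such as ACTA1 and CKM were abundant in every library, with 0 of 5 tested markers called by edgeR, 0 by DESeq2 and 0 with an unadjusted p below 0.05.

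In STH muscle, PLIN2 and ANGPTL4 mRNA was higher than in QHMM muscle, 3.1-fold and 4.39-fold. PNPLA2 and UCP2 were also above the QHMM range in all STH libraries, 2.13-fold and 2.31-fold, but missed the adjusted threshold. PLIN3, PLIN5, ABHD5, LIPE and UCP3 overlapped between the breeds. G0S2, the inhibitor of PNPLA2, was near the limit of detection, with 12 reads in the 3 QHMM libraries and 3 in the 3 STH libraries.

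Of the 9 tested genes, 2 were called, both up-regulated, against 3.45% of all tested genes in either direction, 1.62% up-regulated and 1.83% down-regulated. In 4 of the 9, all STH libraries lay above all QHMM libraries, which held for 13.0% of all tested genes, and 24.7% did not overlap in either direction. The same 4 had an unadjusted p below 0.05 in edgeR's test, as did 19.2% of all tested genes. An adjusted p below 0.10 with a fold change above 1.5 was reached by those 4 and by 7.12% of all genes. The median log2 fold change was 0.40 over the 9 genes and 0.02 over all tested genes. All 9 fitted log2 fold changes were above 0, as were 51.8% over all genes, but that of ABHD5 was below 0 with upper-quartile or DESeq2 scaling. The call of PLIN2 was lost in 4 and that of ANGPTL4 in 4 of the 6 fits that each left out 1 library. Without QHMM replicate 2 and STH replicate 3 together, ANGPTL4 was called (log2 fold change 2.59, adjusted p = 0.0486, edgeR). PLIN2, PNPLA2 and UCP2 were then not called, with log2 fold changes of 1.41, 1.39 and 1.56 and adjusted p of 0.160, 0.1002 and 0.101 (edgeR).

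**Figure D1:**
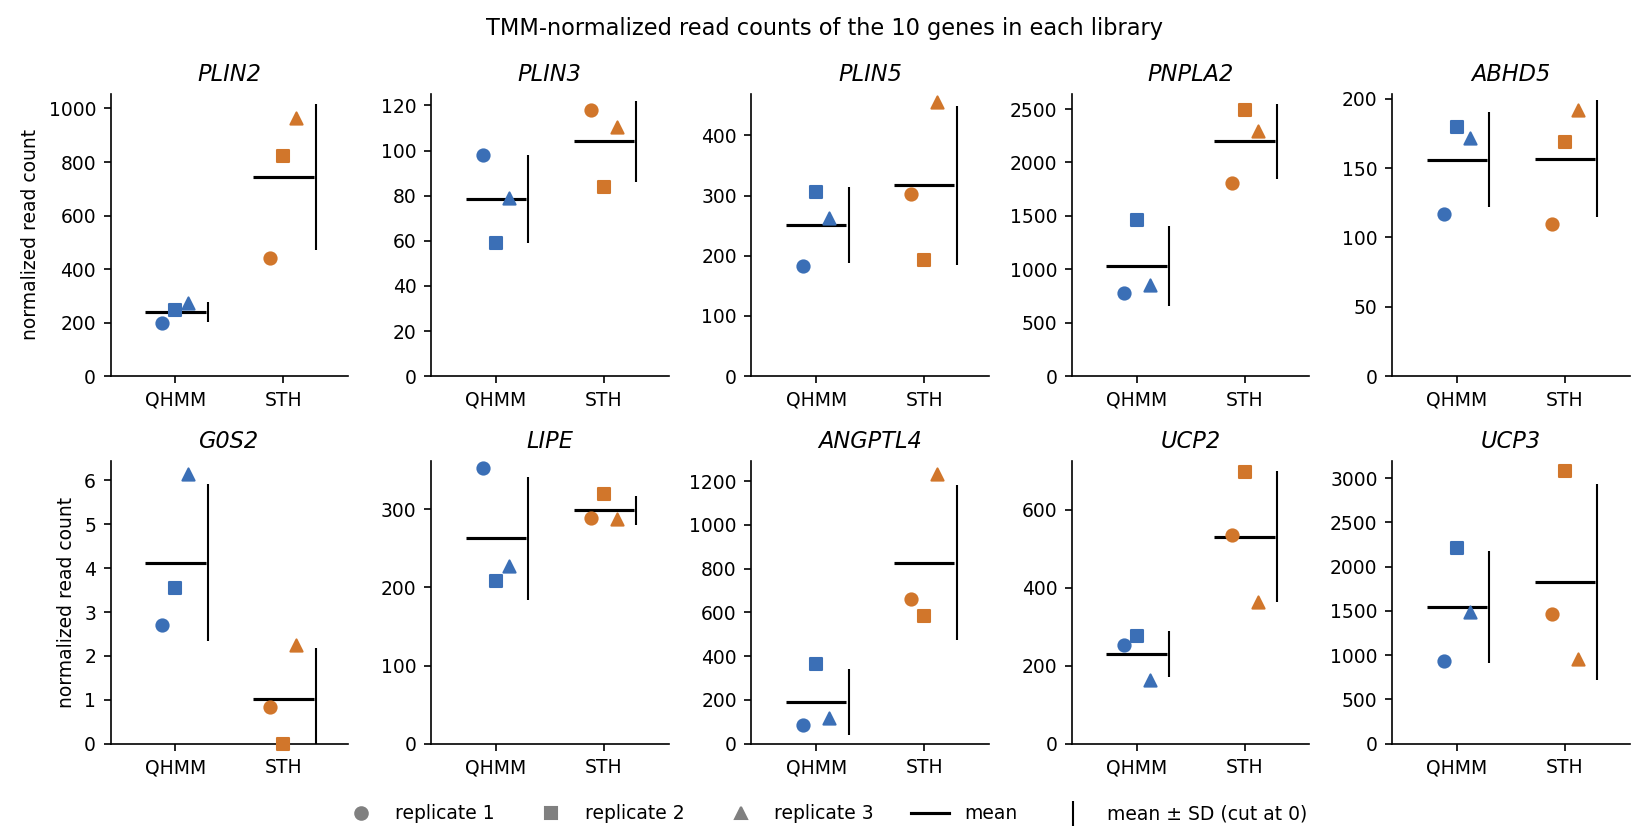
Normalized read counts (linear axes from 0, a separate axis for each gene) of the 10 genes in 3 QHMM and 3 STH libraries, with the mean as a horizontal line and the SD as a vertical line; symbols mark replicate numbers. The STH points lie above all QHMM points for PLIN2, PNPLA2, ANGPTL4 and UCP2 and below them for G0S2, while those of the other 5 genes overlap.

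PLIN2, the perilipin found on lipid droplets of most tissues, had 198, 246 and 274 normalized read counts in QHMM replicates 1, 2 and 3. It had 441, 824 and 966 in STH replicates 1, 2 and 3. The lowest STH library was above the highest QHMM library, and the STH libraries spread more widely, with a coefficient of variation of 36.5% against 16.1%. The means were 239.5 ± 38.6 in QHMM and 743 ± 272 in STH (SD, n = 3 each). The fitted log2 fold change of PLIN2 was 1.63 with an SE of 0.30 and a 95% interval of 0.98 to 2.29, and the adjusted p from edgeR was 0.0193. Ordered by p-value, PLIN2 was at place 134 of the tested genes. In bulk muscle, a difference in the number of cells of a type cannot be told apart from a difference in RNA per cell. The adjusted p from edgeR was 0.0839, 0.0616 and 0.0544 without QHMM replicates 1, 2 and 3 and 0.0515 without STH replicate 2, while the log2 fold change stayed between 1.40 and 1.89 in all 6 such fits.

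PLIN5, the perilipin of oxidative tissues that sits where droplets meet mitochondria, had 183, 307 and 263 normalized read counts in the QHMM replicates. In the STH replicates it had 302, 193 and 456. The STH libraries included both the highest value and one close to the lowest, so the breeds overlapped. For PLIN5 the log2 fold change was 0.34 with an SE of 0.32 and a 95% interval of -0.37 to 1.05 (adjusted p = 0.616, edgeR), and without STH replicate 3 it was -0.01.

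PLIN3, a perilipin that moves between the cytosol and new droplets, was the lowest of the 3 coat genes in RPKM. Its normalized read counts were 98.0, 59.0 and 78.8 in the QHMM replicates and 118, 84.0 and 110.6 in the STH replicates. STH replicate 2 fell inside the QHMM range. For PLIN3 it was 0.40 on the log2 scale, with an SE of 0.28 and a 95% interval of -0.22 to 1.03 (adjusted p = 0.480, edgeR).

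Levels of different genes were compared only as RPKM, which divides by gene length. The summed RPKM of the perilipins PLIN1 to PLIN5 was 77.4, 71.0 and 66.1 in the QHMM replicates and 97.1, 101 and 107 in the STH replicates. PLIN2 made up 13.6%, 15.6% and 22.4% of this sum in QHMM. In STH its share was 28.5%, 47.2% and 40.5%, above every QHMM library. PLIN1, the perilipin of adipocytes, made up 7.83% to 21.7% of the sum in QHMM and 1.39% to 2.97% in STH. PLIN4, a perilipin of muscle and fat, was the largest share in each QHMM library at 37.7% to 51.4%, and it was 32.2% to 40.0% in STH. In STH replicates 2 and 3 the PLIN2 share was larger than that of PLIN4.

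**Figure D2:**
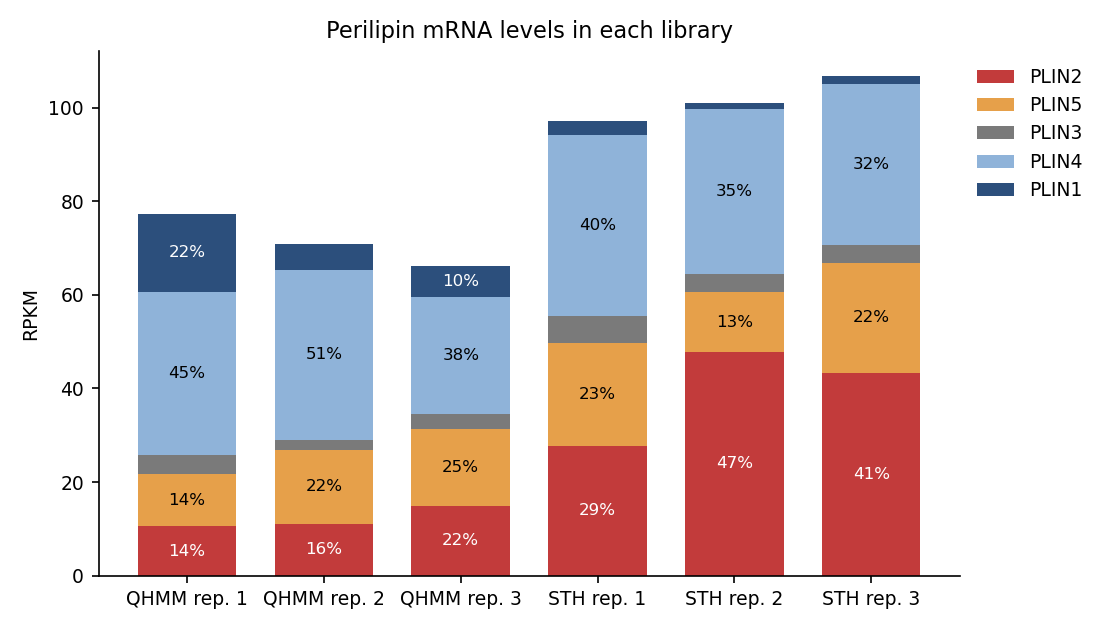
Stacked RPKM values (linear axis from 0) of the 5 perilipin genes in each library, with percentages of the library's sum printed in the larger segments. The PLIN2 segment is larger in all 3 STH libraries (28.5% to 47.2%) than in the QHMM libraries (13.6% to 22.4%), and the PLIN1 segment is smaller (1.39% to 2.97% against 7.83% to 21.7%).

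The ratio of PLIN5 to PLIN2, taken within a library so that library scaling cancels, was 1.07, 1.44 and 1.11 in the QHMM replicates. It was 0.791, 0.270 and 0.545 in the STH replicates. PLIN5 was thus above PLIN2 per length in each QHMM library and below it in each STH library. The mean log2 ratio was lower in STH by 1.29 (difference -1.29, exact two-sided permutation p = 0.1, adjusted p = 0.2 over 4 ratios), and 0.1 is the smallest p that 3 against 3 libraries can give.

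PNPLA2, the lipase of the opening step, had 775, 1465 and 852 normalized read counts in the QHMM replicates. In the STH replicates it had 1812, 2495 and 2292. QHMM replicate 2 was the nearest to the STH range, and the breeds did not overlap. The means were 1031 ± 378 in QHMM and 2199.9 ± 351 in STH (SD, n = 3 each). PNPLA2 had a log2 fold change of 1.09 with an SE of 0.28 and a 95% interval of 0.47 to 1.72, and the adjusted p from edgeR was 0.0622, which missed the threshold. The adjusted p was 0.00882 with DESeq2, which called 7.80% of all genes. It was 0.0374 with library totals, 0.0308 without the filter and 0.0413 with the replicate number as a block (edgeR). With limma it was 0.0194 and 0.0224 on filtered genes and 0.0682 on all genes. The call was missed with upper-quartile factors (0.0604), at least 10 counts in every library (0.0561) and robust dispersions (0.0514, edgeR). Of the 6 edgeR fits that each left out 1 library, the call was made without QHMM replicate 2 (adjusted p = 0.0371) and not in the other 5, where the adjusted p was 0.0571 to 0.202.

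ABHD5, which activates PNPLA2 when released from the droplet coat, had 117, 179 and 172 normalized read counts in QHMM and 109.8, 169 and 192 in STH. The breeds overlapped almost completely, with replicate 1 the lowest in each breed. The log2 fold change was 0.01 with an SE of 0.29 (adjusted p = 0.992, edgeR), and its 95% interval ran from -0.62 to 0.64, or from 0.649 to 1.56 as a linear fold change. The ratio of ABHD5 to PNPLA2 in RPKM was 0.177, 0.144 and 0.237 in QHMM and 0.0713, 0.0797 and 0.0985 in STH. Every STH library had less ABHD5 per PNPLA2 than every QHMM library, with a difference in mean log2 ratio of -1.15 (exact permutation p = 0.1, the smallest possible, adjusted p = 0.2).

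G0S2 had 3, 3 and 6 raw reads in the QHMM replicates and 1, 0 and 2 in the STH replicates. All STH libraries lay below all QHMM libraries, as in 11.7% of the tested genes, but no STH library was above 3 reads. The depth-corrected ratio of the summed reads, STH to QHMM, was 0.243, with an exact 95% interval of 0.0441 to 0.902 that covers counting error only. When edgeR was run on all genes with a read, the p-value of G0S2 was 0.107 and the adjusted p 0.437. In RPKM, the ratio of G0S2 to PNPLA2 was 0.0186, 0.0129 and 0.0384 in QHMM and 0.00245, 0 and 0.00525 in STH. These ratios rest on 0 to 6 G0S2 reads a library. The length implied for G0S2 was 261 bases, against 1183 to 2208 for the other members, and its part in the ratios was not tested.

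LIPE had 354, 209 and 227 normalized read counts in the QHMM replicates and 289, 320 and 288 in the STH replicates. QHMM replicate 1 was the highest of all 6 libraries, the other 2 QHMM libraries were the lowest, and the STH libraries lay close together between them. LIPE had a log2 fold change of 0.18 with an SE of 0.25 and a 95% interval of -0.37 to 0.73 (adjusted p = 0.744, edgeR). The ratio of PNPLA2 to LIPE in RPKM was 3.48, 11.1 and 5.95 in QHMM and 9.96, 12.4 and 12.6 in STH. The ratio overlapped between the breeds because of QHMM replicate 2 (difference in mean log2 ratio 0.92, exact permutation p = 0.2, adjusted p = 0.2).

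**Figure D3:**
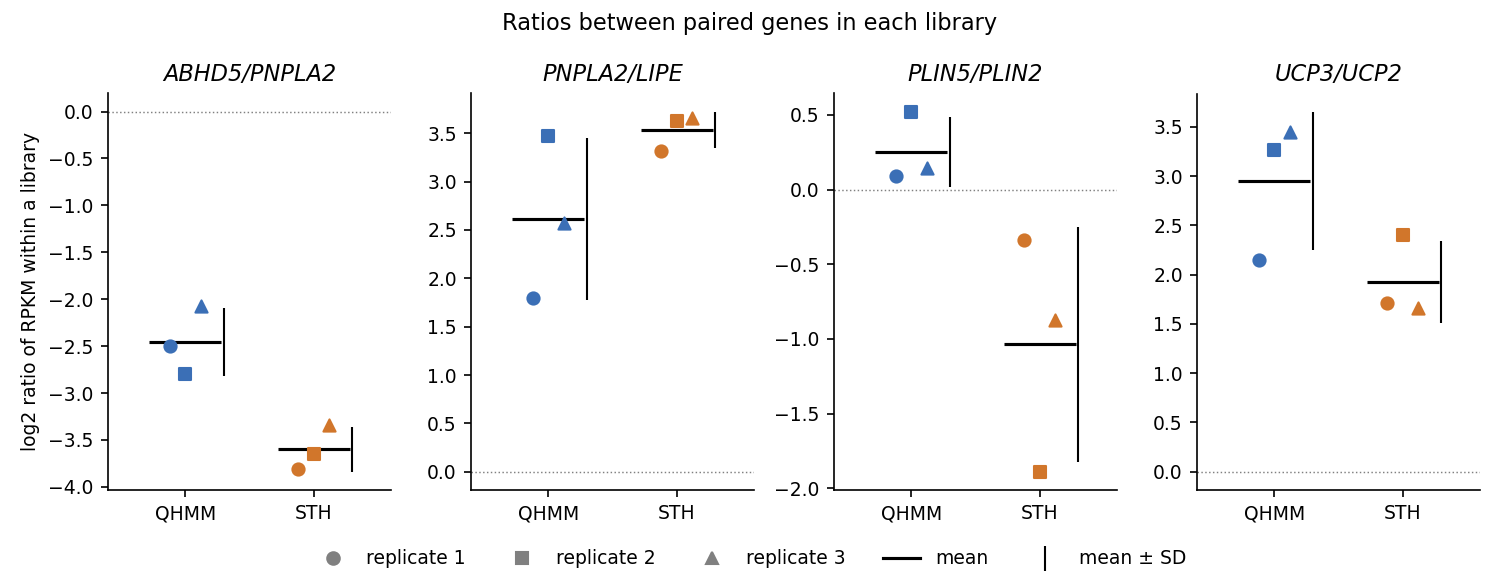
The log2 ratio of the RPKM values of paired genes within each library, with means and SDs, for 3 QHMM and 3 STH libraries; the dotted line marks equal levels per length. The STH libraries lie below all QHMM libraries for ABHD5/PNPLA2 and PLIN5/PLIN2, while the breeds overlap for PNPLA2/LIPE and UCP3/UCP2.

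ANGPTL4 had the largest fitted fold change of the 9 tested genes and, among QHMM animals, the largest coefficient of variation of the 10 (79.5%). It had 87.3, 362 and 119 normalized read counts in the QHMM replicates. It had 664, 586 and 1233 in the STH replicates. QHMM replicate 2 was 4.15 times the lowest QHMM library and still below every STH library, and STH replicate 3 was 2.10 times the lowest STH library. The means were 189 ± 150.4 in QHMM and 827 ± 353 in STH (SD, n = 3 each). Its log2 fold change was 2.13 with an SE of 0.50 and a 95% interval of 1.04 to 3.23, and the adjusted p from edgeR was 0.0450. The adjusted p was 0.115 without QHMM replicate 1, 0.138 without QHMM replicate 3, 0.0585 without STH replicate 2 and 0.09996 without STH replicate 3. It was 0.105 with robust dispersions and 0.0682 with limma on all genes, and without QHMM replicate 2 the log2 fold change was 3.01 with an adjusted p from edgeR of 0.0119.

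UCP2 had 253, 276 and 163 normalized read counts in the QHMM replicates and 536, 696 and 362 in the STH replicates. STH replicate 3 was the lowest STH library and lay above the highest QHMM library. The means were 230.5 ± 59.9 in QHMM and 531 ± 167 in STH (SD, n = 3 each). The log2 fold change was 1.21 with an SE of 0.29 and a 95% interval of 0.56 to 1.85, and the adjusted p from edgeR was 0.0506, just above the threshold. The adjusted p was 0.00595 with DESeq2, 0.0779 with edgeR on library totals and 0.0755 with limma on log2(RPKM + 1) of filtered genes. In edgeR it was 0.0175 without the filter, 0.0245 with the replicate number as a block and 0.0443 with robust dispersions. It was 0.0485 with at least 10 counts in every library and 0.0534 with upper-quartile factors (edgeR). With limma it was 0.0805 on log2(RPKM + 0.1) of filtered genes and 0.167 on all genes. Of the 6 edgeR fits that each left out 1 library, the call was made without STH replicate 3 (adjusted p = 0.0340) and not in the other 5, where the adjusted p was 0.0761 to 0.163.

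UCP3, at the highest RPKM of the 10 genes in QHMM, had 938, 2209 and 1485 normalized read counts in the QHMM replicates. It had 1460, 3076 and 957 in the STH replicates. Replicate 2 was the highest in each breed, the lowest libraries of the breeds were nearly equal, and the breeds overlapped over most of their range. The spread within a breed was wide, with coefficients of variation of 41.3% in QHMM and 60.5% in STH. The log2 fold change was 0.25 with an SE of 0.42 and a 95% interval of -0.69 to 1.18 (adjusted p = 0.803, edgeR), and it was -0.04 without QHMM replicate 1 and -0.37 without STH replicate 2. UCP2 and UCP3 are neighbours on the same chromosome in the RefSeq annotation of the ARS-UI_Ramb_v3.0 assembly, with no protein-coding gene between them.

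The ratio of UCP3 to UCP2 in RPKM was 4.45, 9.59 and 10.9 in the QHMM replicates and 3.27, 5.29 and 3.17 in the STH replicates. UCP3 was above UCP2 in all 6 libraries. QHMM replicate 1 fell inside the STH range, and the difference in mean log2 ratio was -1.03 (exact permutation p = 0.2, adjusted p = 0.2). UCP1, the uncoupling protein of brown fat, is listed at 0 in all 6 libraries.

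**Figure D4:**
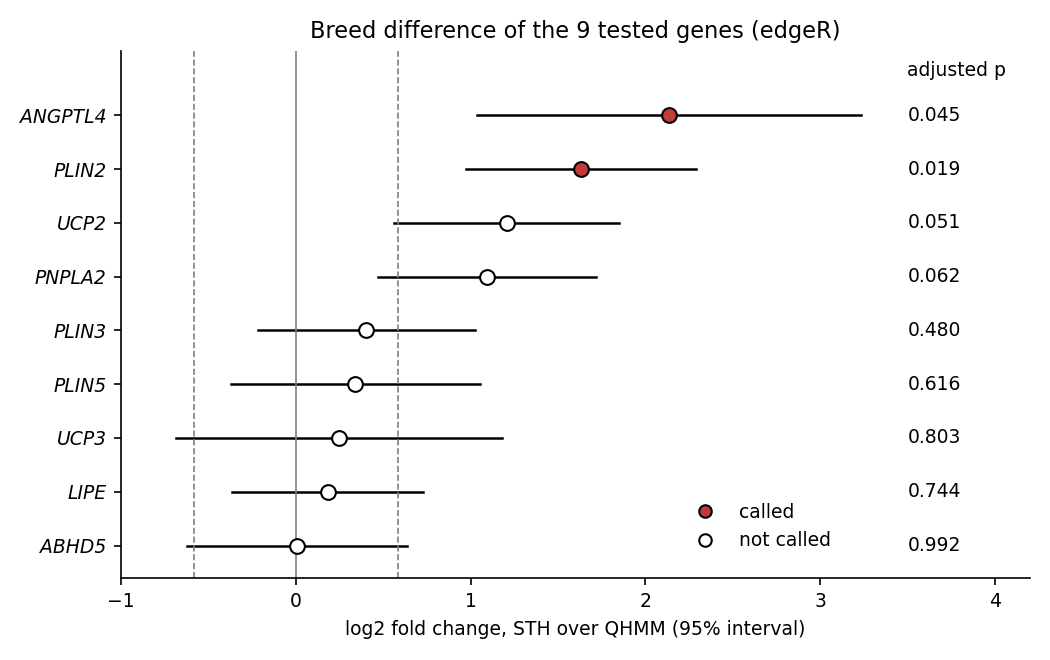
Fitted log2 fold changes (STH over QHMM) of the 9 tested genes with 95% intervals from edgeR; filled points were called, dashed lines mark a 1.5-fold change, and the adjusted p is printed at the right. The intervals of ANGPTL4, PLIN2, UCP2 and PNPLA2 lie above 0, and those of the other 5 genes include 0.

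By mean RPKM in QHMM, UCP3 (82.1) and PNPLA2 (53.4) were the highest and their ranges over libraries overlapped. PNPLA2 lay apart from the next group, in which PLIN5 (14.5), PLIN2 (12.1), UCP2 (10.3), ABHD5 (9.68), ANGPTL4 (9.24) and LIPE (8.90) each overlapped with the next. PLIN3 (3.15) and G0S2 (1.18) followed, each apart from its neighbours in the order. In STH the order was PNPLA2 (126), UCP3 (112), ANGPTL4 (44.4), PLIN2 (39.6), UCP2 (27.0) and PLIN5 (19.5), with overlap between each gene and the next. LIPE (10.9) and ABHD5 (10.4) overlapped with each other and lay apart from PLIN5 and from PLIN3 (4.48), and G0S2 (0.286) was again the lowest. ANGPTL4 stood at place 7 in QHMM and place 3 in STH.

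The other genes of these pathways were taken from 7 lists, together 88 genes, of which 77 are in the table and 66 were tested. Of the 66, 8 (12.1%) were called against 3.45% of all tested genes, 3 of them up-regulated and 5 down-regulated, and 22 had an unadjusted p below 0.05. The count fell to 2 without STH replicate 2, 3 without QHMM replicate 1, 4 without QHMM replicate 3 and 5 without STH replicate 3. With limma on all genes 2 were called, LPIN1 and PDK4, and without QHMM replicate 2 and STH replicate 3 together 1 was called, PDK4.

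Among 10 tested genes of droplet coat and assembly, 2 were called down-regulated and none up-regulated, against 1.83% and 1.62% of all tested genes. PLIN1 had a log2 fold change of -2.37 with an SE of 0.43 (adjusted p = 0.0186, edgeR), and CIDEC, which fuses droplets in fat cells, of -2.44 with an SE of 0.56 (adjusted p = 0.0438). PLIN2 differed in the opposite direction in the same libraries. Without STH replicate 2 the adjusted p of PLIN1 was 0.0513, and that of CIDEC was 0.0578 to 0.128 in the 5 fits without QHMM replicate 1 or 3 or any 1 STH replicate (edgeR). The log2 fold change of CIDEC was -1.35 without QHMM replicate 1, and its call was also lost with robust dispersions, library totals and limma (adjusted p = 0.110, 0.0847 and 0.104 to 0.233). PLIN4 had a log2 fold change of 0.05 (adjusted p = 0.946, edgeR).

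Of 14 tested genes of triacylglycerol synthesis, 3 were called, against 3.45% of all tested genes. LPIN1, a phosphatidate phosphatase that also acts as a coactivator in the nucleus, was up-regulated with a log2 fold change of 1.92 (adjusted p = 0.0239, edgeR). DGAT2, which adds the last fatty acid, and GPAM, the mitochondrial enzyme of the opening step, were down-regulated with log2 fold changes of -4.01 and -2.54 (adjusted p = 0.0230 and 0.0321). QHMM replicate 1 held most DGAT2 reads, with 1508 normalized read counts against 169.8 and 280.3 in the other QHMM replicates and 19.2 to 57.4 in STH. The call of LPIN1 was lost without QHMM replicate 1 or 3 or STH replicate 2 (adjusted p up to 0.0913), that of DGAT2 without STH replicate 2 or 3 (up to 0.0633), and that of GPAM without QHMM replicate 1 or 3 or STH replicate 2 or 3 (up to 0.0869, edgeR). Without QHMM replicate 1 the log2 fold change was -2.50 for DGAT2 and -1.86 for GPAM. Both calls were also lost with robust dispersions (adjusted p = 0.118 and 0.0552), with library totals (0.0537 and 0.0847) and with limma (0.0575 to 0.176 and 0.113 to 0.245).

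None of the 7 tested genes of the lipoprotein lipase system was called by edgeR, although 4 had an unadjusted p below 0.05, and DESeq2 called 2. LPL itself, the target of ANGPTL4, had 2541, 642 and 1049 normalized read counts in QHMM and 551, 544 and 245 in STH. It lay lower in each STH library than in any QHMM library, with a log2 fold change of -1.66 and an SE of 0.48 (adjusted p = 0.0851, edgeR). The fatty acid binding proteins FABP3 and FABP4 had log2 fold changes of 0.20 (adjusted p = 0.681) and -0.04 (adjusted p = 0.980) by edgeR.

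None of the 13 tested genes of other lipases and of lipolysis signalling was called by edgeR, 3 had an unadjusted p below 0.05, and DESeq2 called 1. The most abundant were subunits of protein kinase A, the kinase that acts on perilipins and LIPE. PRKAR2A, PRKACA and PRKAR1A had log2 fold changes of -0.51, -0.59 and -0.02, with adjusted p of 0.305, 0.206 and 0.974 (edgeR). PPARs are nuclear receptors that regulate fat genes. Of 8 tested genes of the PPAR and cofactor list, only RXRG was called, with a log2 fold change of -2.01 (adjusted p = 0.0143, edgeR). The unadjusted p was below 0.05 for 3 of the 8 in edgeR's test, against 19.2% of all tested genes, and DESeq2 called 2. The cofactor PPARGC1B had a log2 fold change of -1.49 (adjusted p = 0.0815, edgeR). Its STH libraries all lay below all QHMM libraries, as in 11.7% of the tested genes. The call of RXRG was lost with limma on all genes (adjusted p = 0.0574). PPARD and PPARG had log2 fold changes of -0.02 and -0.40 (adjusted p = 0.975 and 0.574, edgeR). PPARA and RXRA were not in the table.

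Of 10 tested genes of fatty acid oxidation that respond to fasting, 2 were called, both up-regulated, against 1.62% of all tested genes. All 10 fitted log2 fold changes were above 0, as were 51.8% over all tested genes. PDK4, the kinase that shuts off pyruvate entry into the citrate cycle, had 478, 2572 and 166 normalized read counts in the QHMM replicates. The STH replicates had 34280.3, 41355 and 38954, above every QHMM library by more than the spread within either breed. Its log2 fold change was 5.16 with an SE of 0.86 (adjusted p = 0.0137, edgeR). CPT1A, a gate of fatty acid entry into mitochondria, had a log2 fold change of 1.33 (adjusted p = 0.0491, edgeR), and its call was lost without any 1 library other than STH replicate 3 (adjusted p up to 0.154). It was also lost with upper-quartile factors (0.0616), library totals (0.104) and limma (0.110 to 0.230). CPT1B, of the same list, had a higher mean RPKM over all libraries (57.5 against 3.86 for CPT1A) and overlapped between the breeds. The log2 fold change of CPT1B was 0.43 (adjusted p = 0.444, edgeR). The call of PDK4 was lost without QHMM replicate 1 (adjusted p = 0.0506) and with robust dispersions (0.0762), and without QHMM replicate 2 its log2 fold change was 6.89 (edgeR). As for ANGPTL4, QHMM replicate 2 was the highest QHMM library for PDK4 and stayed below all STH libraries.

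None of the 4 tested genes of other proton leak and adenine nucleotide carriers was called by edgeR, 1 had an unadjusted p below 0.05, and DESeq2 called 0. The most abundant of them, the adenine nucleotide carrier SLC25A4, had a log2 fold change of 0.04 (adjusted p = 0.952, edgeR). SLC25A6, the next in RPKM, had a log2 fold change of 0.70 (unadjusted p = 0.0139, adjusted p = 0.139, edgeR). Its STH libraries all lay above all QHMM libraries, as in 13.0% of the tested genes. SLC25A5 had a log2 fold change of -0.12 (adjusted p = 0.914, edgeR).

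**Figure D5:**
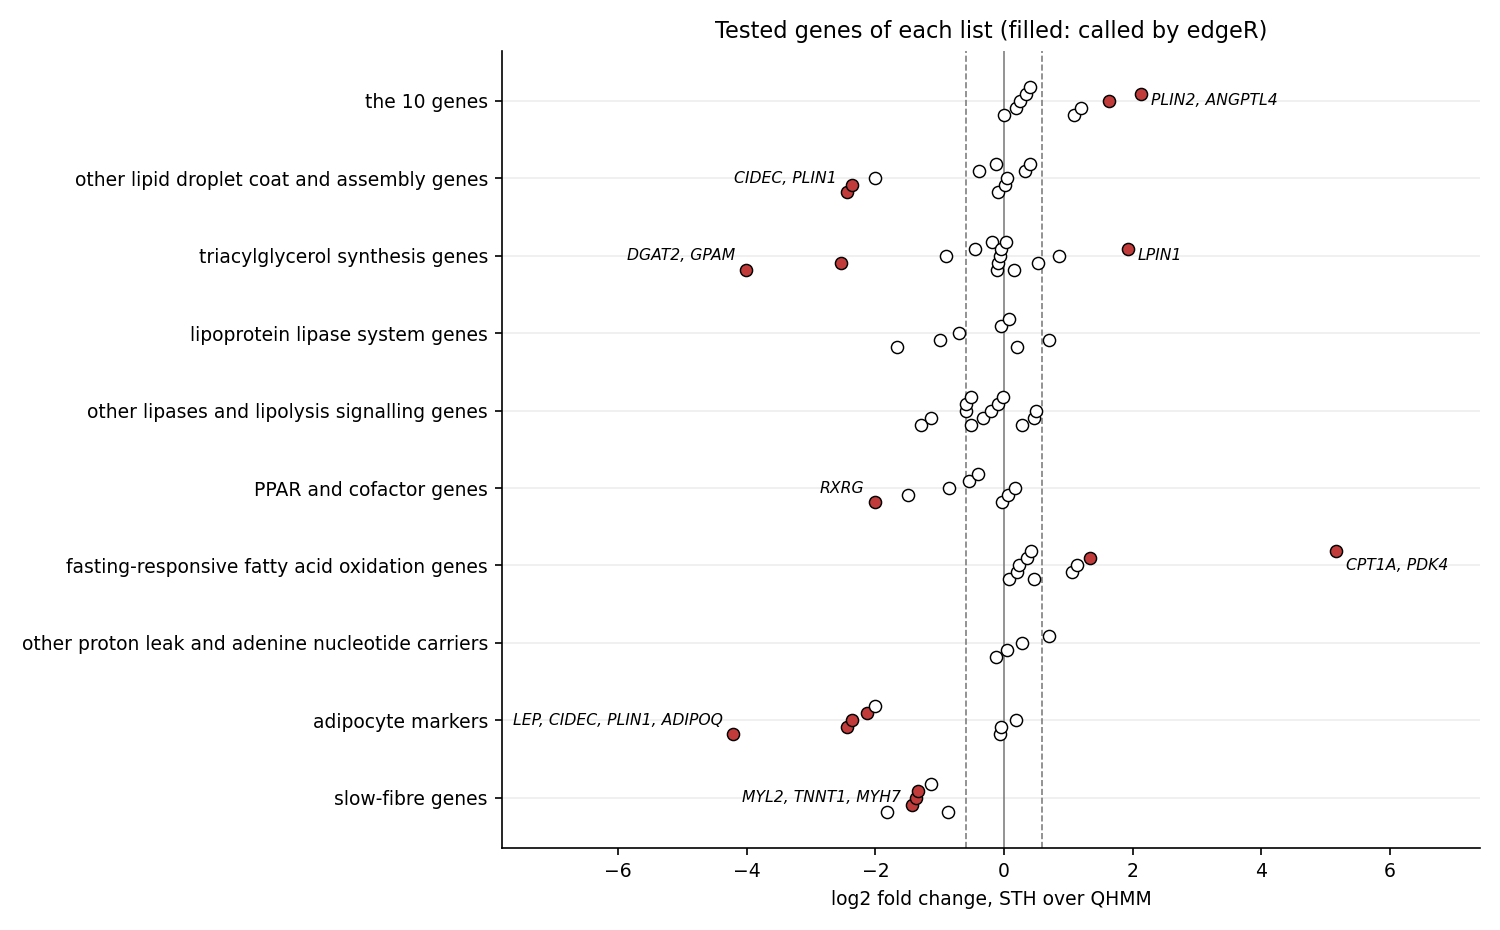
Fitted log2 fold changes (STH over QHMM) of the tested genes in each list, 1 point per gene, spread vertically only for legibility; filled points were called by edgeR and are named beside the row, and dashed lines mark a 1.5-fold change. In the list of 10 genes both called genes lie to the right (PLIN2 1.63, ANGPTL4 2.13), while the called adipocyte markers and slow-fibre genes lie to the left.

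Muscle samples also hold fat cells, blood vessels and immune cells, and some of the adipocyte markers differed between the breeds. Of 8 tested adipocyte markers, 4 were called, all down-regulated, against 1.83% of all tested genes. They were ADIPOQ, LEP, PLIN1 and CIDEC, with log2 fold changes of -2.13, -4.21, -2.37 and -2.44 (edgeR). ADIPOQ, the adipocyte hormone adiponectin, had 3221, 1109.8 and 1685 normalized read counts in QHMM and 465, 516 and 396 in STH. Its adjusted p was at most 0.0399 when 1 library was left out (edgeR). Over the alternative edgeR, DESeq2 and limma settings with all 6 libraries, the adjusted p reached 0.127 for ADIPOQ and 0.238 for LEP. The call of LEP was lost without QHMM replicate 1 or 3 or STH replicate 2 or 3 (adjusted p up to 0.107, edgeR) and with library totals (0.0673), and those of PLIN1 and CIDEC as given above. LEP was near the limit of detection in STH, with 4.16, 0 and 1.13 normalized read counts, against 75.6, 13.0 and 24.5 in QHMM. The log2 fold change of LEP was -3.23 without QHMM replicate 1 and -5.82 without STH replicate 1, and that of CIDEC was -1.35 without QHMM replicate 1. FABP4, CFD, CIDEA and LIPE were not called, and RETN was at 0 in all 6 libraries. The summed RPKM of the 9 adipocyte markers was 71.5 to 309 in QHMM and 55.8 to 146 in STH, so the sums overlapped. PLIN2, ANGPTL4, PNPLA2 and UCP2 were higher in the breed with the lower ADIPOQ, and the part of adipocytes in their values was not tested.

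UCP2 is also expressed in macrophages. Of 7 macrophage markers in the table, 6 were tested and 0 were called by edgeR, DESeq2 called 0, 1 had an unadjusted p below 0.05, and their summed RPKM was 30.5 to 39.8 in QHMM and 21.4 to 43.4 in STH. Of the endothelial markers, PECAM1, CDH5 and VWF were in the table, and edgeR called 0 of 3 and DESeq2 0, with 0 at an unadjusted p below 0.05. Their summed RPKM was 109 to 137 in QHMM and 110 to 178 in STH. Of the blood cell markers, SLC4A1 was at 0 and ALAS2 at an RPKM of at most 0.403 in any library. The haemoglobin genes HBB, HBA1 and HBA2 were not in the table, so the amount of blood cannot be read from these markers. The part of immune cells, vessels and blood in the 10 genes was not tested.

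Fibre type genes moved with the breed as well. Of 6 tested slow-fibre genes, 3 were called, all down-regulated, against 1.83% of all tested genes. They were MYH7 (listed as OMYHCS), TNNT1 and MYL2, with log2 fold changes of -1.34, -1.37 and -1.44 (edgeR). Their list had a summed RPKM of 15934 to 22707 in QHMM and 7006 to 10741 in STH, without overlap. The adjusted p of these 3 reached 0.111, 0.0871 and 0.103 when 1 library was left out, and every library other than STH replicates 1 and 3 for MYH7 and TNNT1, and other than STH replicate 2 for MYL2, was needed for the call. With library totals the adjusted p of MYL2 was 0.0658 (edgeR). Of 6 tested fast-fibre genes 0 were called by edgeR, 1 by DESeq2 and 1 had an unadjusted p below 0.05. All 6 fitted log2 fold changes were below 0, with a median of -0.30, while 51.8% over all tested genes were above 0. ACTN3 had the lowest, -1.02 (unadjusted p = 0.0172, adjusted p = 0.154, edgeR). Its STH libraries all lay below all QHMM libraries, as in 11.7% of the tested genes. MYH1 and MYH2 were not in the table, and TNNT3 was listed at 0 in all 6 libraries. PLIN5 and UCP3 overlapped between the breeds while the slow-fibre sums did not, and the part of fibre type in the 10 genes was not tested.

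For the 3 members with the lowest p-values, the genes with the nearest profile over the 6 libraries were sought among 7153 genes with a mean of at least 100 normalized read counts. Likeness was the root mean square difference of the centred log2 values. Nearest to PLIN2 were TRIM54 (0.217), PIK3R1 (0.227) and GABARAPL1 (0.228). Nearest to ANGPTL4 were ZBTB16 (0.377), FOXS1 (0.399) and LOC101112411 (0.419). Nearest to UCP2 were LRP4 (0.235), BTNL9 (0.236) and LOC101110574 (0.247). The points share the 6 libraries and the breed difference, and the distances carry no p-value.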

How the data were processed

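RNA was measured in longissimus dorsi muscle of 3 QHMM and 3 STH sheep. The authors counted uniquely mapped Ion Proton reads per gene and deposited counts without normalization, and they also deposited RPKM values, which divide each count by gene length and library total. The submitters' processing notes name the sheep genome Oar 3.1; the aligner, counter, strand setting and annotation release are not given in the sources used here. Reads of paralogs or overlapping genes could be split or dropped, and genes carry no coordinates here.

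Counts were tested in R 4.3.3 with edgeR 4.0.16 (TMM, filterByExpr on breed, glmQLFit and glmQLFTest, breed as the only term, all 6 libraries) over 12506 genes. EBSeq, the program of the study, was not installed. A call needed an adjusted p below 0.05 and a fold change above 1.5, the study's thresholds. Intervals are 95%. Ratios of RPKM were compared by exact two-sided permutation tests, and the G0S2/PNPLA2 log ratio has no value because G0S2 is 0 in 1 library. Alternatives used DESeq2 1.42.0, limma 3.58.1 on log2(RPKM + 1) and log2(RPKM + 0.1), other scalings and filters, a replicate block, and fits without 1 or 2 libraries. The methods were also run on simulated counts drawn independently for each gene. That simulation lacked the variation shared across genes that set QHMM replicate 2 and STH replicate 3 apart, and it bears on no call here. Python 3.11.15 with pandas 2.3.3 and SciPy 1.17.1 made the tables and matplotlib 3.10.9 the plots.

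The members and lists were chosen with earlier results of these data known. Named are all 10 members, the called genes of each list (the 3 with the highest mean RPKM where none was called), the defining genes of the marker lists, and 3 nearest profiles for 3 members. PLIN4, LPL, PPARD, PPARG, PPARGC1B, CPT1B, ACTN3, ACTA1, CKM, CFD, CIDEA and the markers at 0 are also named, chosen after their values were seen. Some list genes absent from the table are named too. TNNT3, a fast-fibre gene, is listed at 0 in all 6 libraries. A listed 0 is thus not taken as absence of the RNA. The depth limits G0S2, at 0 to 6 reads a library. The gene length implied by its counts and RPKM was 261 bases, against 1183 to 2208 for the other members. The part of this short length in the low counts of G0S2 was not tested. Replicates are separate animals, and the labels do not say that a shared replicate number marks a batch. No sequences were used here.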

Additional observations from a re-analysis of the deposited data

How the results depend on the processing

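The number of the 10 genes called was 2 with edgeR on TMM-scaled counts. With robust dispersions it was again 2, PLIN2 and UCP2. It was 3 with library totals, 3 with at least 10 counts in every library and 3 with limma on filtered genes at either pseudocount. It was 4 with DESeq2 and 4 without the filter on low counts, with PNPLA2 and UCP2 joining PLIN2 and ANGPTL4, 1 with limma on log2(RPKM + 1) of all genes, 1 without QHMM replicate 2 and STH replicate 3 together, 0 at an adjusted p below 0.01, and 0 to 2 when 1 library was left out. Called genes in the whole table, 432, became 975 with DESeq2, 250 with library totals, 806 without the filter, 41 at an adjusted p below 0.01, 78 with limma on all genes, 11 without both libraries and 131 to 535 without 1 library. Called pathway genes, 8, became 15 with DESeq2, 15 without the filter, 4 with library totals, 4 with robust dispersions, 5 with limma on filtered genes at either pseudocount, 2 with limma on all genes, 0 at an adjusted p below 0.01, 1 without both libraries and 2 to 9 without 1 library. With the replicate number as a block, 4 of the 10 genes were called. CPT1A was then not called (adjusted p = 0.0764, edgeR). The block is not known to pair animals: deviations of same-numbered libraries correlated at 0.226, -0.038 and -0.13.

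The log2 fold change of ABHD5 was 0.01 and turned to -0.012 with DESeq2, -0.023 with upper-quartile factors, -0.0055 without the filter, -0.024 with at least 10 counts in every library, -0.0049 with the replicate block, -0.06 without both libraries, and -0.19 to 0.20 when 1 library was left out. When 1 library was left out, PLIN5 ranged from -0.014 to 0.58 and UCP3 from -0.37 to 0.60, and without both libraries UCP3 was at 0.89. Scaling by library totals moved the median of all genes up by 0.12 on the log2 scale, and limma on log2(RPKM + 0.1) by 0.12, so log2 fold changes under these settings are to be read relative to that shift. The called share that was up-regulated was 61.3%, 61.9% and 69.2% in the limma fits against 47.0%. The causes were not tested. The log2 ratios kept their sign in all alternatives run. Depth limits G0S2, whose adjusted p was 0.437 in edgeR without the filter.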
